A study of Homo sapiens with 6 samples.

Results

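The 8 genes described here are 6 metallothionein genes (MT1E, MT1F, MT1G, MT1M, MT1X and MT2A), the zinc-sensing transcription factor gene MTF1 and the zinc exporter gene SLC30A1. They were taken by symbol as a family and its regulators, with no threshold on measured values, though with earlier results of these data known, and each was found as 1 row of the 60960 features of the deposited table, so that 8 of 8 are accounted for. RNA sequencing had been done on a human lung adenocarcinoma line with mutated EGFR, NCI-H1975, in 3 libraries labelled siGFPT2 (a small interfering RNA against GFPT2, the enzyme that starts hexosamine synthesis) and 3 libraries labelled siNC (its control RNA). For all 6, the text on RNA extraction speaks of almonertinib, an EGFR inhibitor, of EGF and of a knockdown of EGFR. No treatment label names any of these, so what the cells received besides the small interfering RNA is not known here. All libraries come from 1 line, nothing in the labels tells if the libraries of a group grew as separate cultures, and p-values therefore measure the spread between these libraries, which may be technical.

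Metallothioneins are very small, cysteine-rich proteins that hold zinc, copper and cadmium ions. When free zinc rises, MTF1 binds metal response elements in promoters and raises transcription of metallothionein genes and of SLC30A1, whose product moves zinc out of the cytosol. Metallothionein genes also respond to glucocorticoids and oxidants, and MT2A and the MT1 genes sit side by side in 1 cluster on the long arm of chromosome 16. The MT1 and MT2 copies are alike in sequence, which bears on how reads can be told apart, and 3 coding sequences and 1 pseudogene are shown for that reason.

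The MT2A coding sequence (GENCODE 29, GRCh38, within chr16:56608656-56609354, plus strand) has 186 bases and codes for 61 amino acids, of which 20 are cysteines (32.8%); the cysteine codons are in capitals in its line. In the other lines capitals mark each base that differs from MT2A at the same position. MT1E lies within chr16:56625852-56626971, MT1X within chr16:56682541-56684049 and the processed pseudogene MT2P1 at chr4:68376323-68376505, all on the plus strand.
MT2A: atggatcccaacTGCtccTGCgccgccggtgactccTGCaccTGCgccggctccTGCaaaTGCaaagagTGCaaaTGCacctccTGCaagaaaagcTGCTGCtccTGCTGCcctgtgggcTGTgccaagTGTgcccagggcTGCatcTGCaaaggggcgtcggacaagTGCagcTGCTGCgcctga
MT1E: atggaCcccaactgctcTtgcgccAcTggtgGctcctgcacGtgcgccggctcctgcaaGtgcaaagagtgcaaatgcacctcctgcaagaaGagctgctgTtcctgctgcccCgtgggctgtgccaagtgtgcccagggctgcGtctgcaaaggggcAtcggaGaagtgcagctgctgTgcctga
MT1X: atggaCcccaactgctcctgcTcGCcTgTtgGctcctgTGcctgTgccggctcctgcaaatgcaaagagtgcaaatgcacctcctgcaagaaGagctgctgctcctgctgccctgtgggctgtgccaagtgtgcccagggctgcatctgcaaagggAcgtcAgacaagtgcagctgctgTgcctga
MT2P1: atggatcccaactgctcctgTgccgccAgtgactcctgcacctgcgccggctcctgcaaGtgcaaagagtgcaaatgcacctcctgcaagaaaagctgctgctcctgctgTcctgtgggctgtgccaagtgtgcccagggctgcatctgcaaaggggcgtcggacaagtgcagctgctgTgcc
MT1E and MT1X each differed from MT2A at 14 of 186 bases (92.5% identity), MT1F at 16 (91.4%) and MT1M at 19 (89.8%), while MT1G has 189 coding bases and was not aligned. MT2P1 differed from MT2A at 5 of 183 bases (97.3% identity). The longest identical run between whole transcripts was 68 bases for MT2A and MT2P1, 65 for MT2A and MT1G, 63 for MT2A and MT1X, 32 for MT2A and MT1E, and 96 for MT1X and MT1G. How the authors counted reads with several matches is not given in the sources used here, so the division of signal between these copies is uncertain for every metallothionein below.

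The promoters of MT2A, MT1X and SLC30A1 are shown because these genes are targets of MTF1. Each run is the RefSeq window from 250 bases before to 50 after the gene start (GRCh38.p14, 5′ to 3′ on the gene's strand), at chr16:56608334-56608633 (plus) for MT2A, chr16:56682220-56682519 (plus) for MT1X and chr1:211579112-211579411 (minus) for SLC30A1. Capitals mark every match, on either strand, to the 7-base core of the metal response element, searched as TGCACNC and TGCGCNC; neighbouring matches may share bases.
MT2A: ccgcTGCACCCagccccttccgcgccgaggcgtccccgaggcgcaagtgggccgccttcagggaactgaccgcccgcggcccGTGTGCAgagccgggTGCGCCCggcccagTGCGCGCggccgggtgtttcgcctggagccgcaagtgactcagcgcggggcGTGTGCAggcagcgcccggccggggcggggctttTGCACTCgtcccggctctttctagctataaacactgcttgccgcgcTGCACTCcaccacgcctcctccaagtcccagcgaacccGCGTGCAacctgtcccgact
MT1X: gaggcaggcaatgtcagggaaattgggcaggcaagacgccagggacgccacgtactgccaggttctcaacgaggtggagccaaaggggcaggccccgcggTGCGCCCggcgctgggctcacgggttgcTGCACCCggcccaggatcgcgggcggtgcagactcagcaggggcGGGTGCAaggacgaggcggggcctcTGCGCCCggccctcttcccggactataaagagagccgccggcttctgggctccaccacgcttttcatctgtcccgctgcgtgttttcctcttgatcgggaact
SLC30A1: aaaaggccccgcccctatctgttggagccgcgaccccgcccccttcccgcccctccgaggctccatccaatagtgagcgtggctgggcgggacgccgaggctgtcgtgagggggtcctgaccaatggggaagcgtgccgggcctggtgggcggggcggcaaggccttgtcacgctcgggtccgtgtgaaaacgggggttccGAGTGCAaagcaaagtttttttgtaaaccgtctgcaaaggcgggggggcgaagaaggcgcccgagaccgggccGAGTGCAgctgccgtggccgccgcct
The MT2A window held 8 matches, that of MT1X 4, that of SLC30A1 2 and that of MTF1 0. Of the 35116 promoters of this length in the table, 29.6% held at least 1 match, 2.30% at least 3 and 0.162% at least 5. Promoters were found for 4 of the 8 genes; MT1E, MT1F, MT1G and MT1M had no entry. A match is a description of letters in the window.

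Depth and library facts bear on every value below. Between 21899321 and 27234880 fragments had been counted per library, read back from the steps of the deposited values, and 12896 features had a mean of at least 1 FPKM (fragments relative to gene length and library depth) and were tested. siGFPT2 replicate 2 and siNC replicate 3 stood apart from the other 4 libraries: in both, the deviation of a feature from its own mean fell with gene length, by 0.0555 and 0.0813 on the log2 scale per doubling of length, while in the other 4 it rose by 0.0271 to 0.0479. Where the fold change of a gene is given below, it is therefore given with and without these 2 libraries. Some named genes have levels only. GFPT2 itself held 8.94, 7.58 and 8.72 FPKM in siGFPT2 libraries, against 10.1, 9.30 and 8.28 FPKM in siNC libraries. Its groups overlapped at a log2 fold change of -0.13 ± 0.13 (SE), which limma did not call (adjusted p = 0.9999), and at -0.14 without the 2 libraries (adjusted p = 0.720), so siGFPT2 and siNC below mean the libraries with these labels. Of 7 epithelial markers all were measured, with summed levels of 1634 to 2054 FPKM in siGFPT2 and 1586 to 2267 FPKM in siNC, and the lung lineage factor NKX2-1 held 27.7 to 31.7 FPKM in siGFPT2 and 28.3 to 31.7 FPKM in siNC. Surfactant genes SFTPB, SFTPC and SFTPA1 stayed under 0.1 FPKM. Of the 5 lung lineage markers, which include NAPSA, only NKX2-1 averaged 1 FPKM or more. The 3 endothelial markers summed to 0.256 to 0.405 FPKM in siGFPT2 and 0.232 to 0.276 FPKM in siNC. The 5 leukocyte markers were all above 0 in some library, with sums of 1.37 to 1.72 FPKM in siGFPT2 and 1.18 to 1.51 FPKM in siNC, and 1 of them averaged over 1 FPKM, while PTPRC was at or near 0. The 5 fibroblast markers summed to 8.72 to 12.6 FPKM in siGFPT2 and 8.41 to 10.1 FPKM in siNC, most of it from COL1A1, a collagen gene. Their part in the results was not tested.

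Among the 6 listed metallothionein genes, NCI-H1975 cells expressed mainly MT2A and MT1E. MT2A, the major ubiquitous form, was at a mean of 674 FPKM over the 6 libraries and ranked 34th by mean level among the 12896 features tested, and MT1E was at 283 FPKM and ranked 112th. Together they held 99.2% to 99.3% of the summed FPKM of the 6 listed metallothionein genes in every library. MT1F (3.31 FPKM), MT1X (1.77) and MT1M (1.66) were far lower, and MT1G was at 0.212 FPKM, under the minimum of the test. That share leaves out copies outside the listed genes. Of these, MT1L averaged 61.8, MT2P1 51.2 and MT1A 17.9 FPKM, all above MT1F. SLC30A1 (3.60 FPKM) and MTF1 (2.41 FPKM) lay at the level of the minor metallothioneins. In such bulk libraries, fewer cells expressing a gene and less RNA per cell cannot be told apart. In this order of levels per length, MT2A was above MT1E, MT1E above SLC30A1, and MT1M above MT1G with no overlap of their ranges over the 6 libraries. The neighbours SLC30A1 and MT1F, MT1F and MTF1, MTF1 and MT1X, and MT1X and MT1M overlapped in range, and in each of these pairs the first was higher in 4 of 6 libraries.

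**Figure D1:**
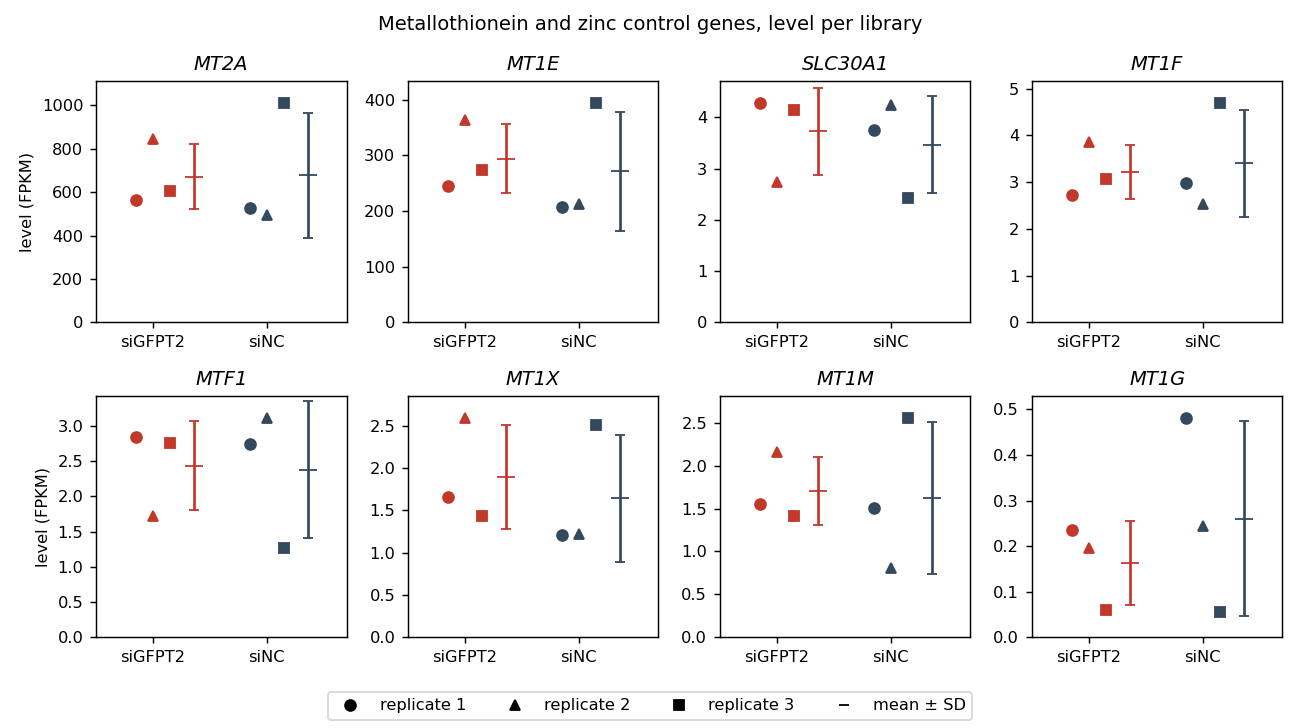
Level in FPKM (linear axes from 0) of the 8 genes in each library, siGFPT2 left of siNC, with 1 point per library (circle, replicate 1; triangle, replicate 2; square, replicate 3) and the group mean ± SD (n = 3). In MT2A, MT1E, MT1F, MT1X and MT1M the highest 2 points are siGFPT2 replicate 2 and siNC replicate 3, and in MTF1 and SLC30A1 the same 2 libraries are lowest.

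MTF1, the zinc finger factor that senses free zinc, did not differ between the labels beyond the spread of the libraries. Its gene lies on the minus strand of chromosome 1 at chr1:37809567-37859620 (GENCODE 29, GRCh38). It held 2.84, 1.71 and 2.76 FPKM in siGFPT2 libraries, against 2.75, 3.12 and 1.27 FPKM in siNC libraries, from 249 to 545 fragments. siGFPT2 replicate 2 and siNC replicate 3 were the lowest libraries of their groups, and the groups overlapped. The mean was 2.44 ± 0.627 FPKM in siGFPT2 and 2.38 ± 0.976 FPKM in siNC (SD, n = 3 each). On the log2(FPKM + 0.1) scale the fold change was 0.09 ± 0.36 (SE; 95% interval -0.77 to 0.95; limma adjusted p = 0.9999). Without the 2 libraries that stood apart it was -0.06 (-0.36 to 0.23; adjusted p = 0.874), so the direction turned with them.

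SLC30A1, the plasma membrane zinc exporter that MTF1 activates, likewise showed no difference past the test. Its gene lies at chr1:211571568-211578742, also on the minus strand. It held 4.28, 2.75 and 4.14 FPKM in siGFPT2 libraries, against 3.75, 4.24 and 2.42 FPKM in siNC libraries, from 349 to 573 fragments. Here too siGFPT2 replicate 2 and siNC replicate 3 were lowest, and the ranges of the groups crossed. Its log2 fold change was 0.11 ± 0.26 (SE; -0.51 to 0.73; limma adjusted p = 0.9999), and 0.08 (-0.19 to 0.34; adjusted p = 0.830) without these 2 libraries.

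MT2A held 564, 843 and 604 FPKM in siGFPT2 libraries, against 528, 495 and 1010 FPKM in siNC libraries. These levels rested on 11714, 20974 and 12263 fragments in siGFPT2 and 10679, 9909 and 22617 in siNC, so that counting error is small beside the differences between libraries. The highest library of all was siNC replicate 3, followed by siGFPT2 replicate 2, and the groups overlapped. With means of 670 ± 150 FPKM in siGFPT2 and 678 ± 288 FPKM in siNC (SD, n = 3 each), the log2 fold change was 0.04 ± 0.31 (SE; -0.69 to 0.78; limma adjusted p = 0.9999). Its direction flips to -0.01 with median centring of the libraries and to -0.01 with quantile normalization. siGFPT2 replicate 2 stood at 1.44 times the mean of siGFPT2 replicates 1 and 3, and siNC replicate 3 at 1.97 times the mean of siNC replicates 1 and 2. Without these 2 libraries the groups did not overlap and the log2 fold change was 0.19 (-0.02 to 0.40), with an adjusted p of 0.720 by limma.

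MT1E, the second abundant isoform, held 245, 364 and 273 FPKM in siGFPT2 libraries, against 207, 213 and 394 FPKM in siNC libraries, from 4809 to 10439 fragments. It followed MT2A: the ratio of MT1E to MT2A in FPKM was 0.434, 0.432 and 0.452 in siGFPT2 libraries and 0.391, 0.430 and 0.390 in siNC libraries. The lowest ratio of siGFPT2 lay just above the highest of siNC, 0.432 against 0.430. How often the ratios of other gene pairs lie apart was not computed, so no difference is read from it. The means of MT1E were 294 ± 62.4 FPKM in siGFPT2 and 271 ± 107 FPKM in siNC (SD, n = 3 each), a log2 fold change of 0.16 ± 0.29 (SE; -0.52 to 0.85; limma adjusted p = 0.9999). Without siGFPT2 replicate 2 and siNC replicate 3 it was 0.30 (0.10 to 0.51). In that fit the unadjusted limma p was 0.0110 and the adjusted p 0.720, so the call did not pass over all features.

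The minor isoforms rested on few fragments. MT1F held 2.73, 3.87 and 3.06 FPKM in siGFPT2 libraries, against 2.98, 2.54 and 4.70 FPKM in siNC libraries, from 103 to 213 fragments. Its log2 fold change was -0.04 ± 0.25 (SE; -0.64 to 0.55), and 0.07 without the 2 libraries that stood apart. Its groups overlapped in both settings.

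MT1X held 1.66, 2.59 and 1.43 FPKM in siGFPT2 libraries, against 1.20, 1.22 and 2.51 FPKM in siNC libraries, from 46 to 122 fragments. The log2 fold change was 0.23 ± 0.34 (SE; -0.58 to 1.04; limma adjusted p = 0.9999), the highest of the 7 tested genes. Without the 2 libraries it was 0.33 (-0.08 to 0.73; adjusted p = 0.720), and the groups did not overlap. A gene of GENCODE 29, AC026461.1, shares exon bases with MT1X on the same strand and was listed at 0 in all 6 libraries.

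MT1M held 1.55, 2.16 and 1.41 FPKM in siGFPT2 libraries, against 1.504, 0.804 and 2.56 FPKM in siNC libraries, from 9 to 32 fragments, so single libraries carry large counting error. Its log2 fold change of 0.18 ± 0.39 (SE) had an interval of -0.75 to 1.12, and without the 2 libraries it was 0.39 (-0.31 to 1.09; limma adjusted p = 0.728). MT1G rested on 4, 4 and 1 fragments in siGFPT2 and 8, 4 and 1 in siNC (0.234, 0.196 and 0.0600 FPKM, against 0.482, 0.243 and 0.0544 FPKM), which allows no comparison.

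Of the 8 genes, 7 passed the filter of a mean of 1 FPKM and 0 passed limma's adjusted threshold of 0.05. Over all 12896 features the share called was 0%, with 0.651% at an unadjusted p under 0.05 and 0 of the 7 among them. The fold changes of the 7 had a median of 0.11 with 6 above 0 and 1 below, beside a median of 0.03 with 7922 above 0 and 4974 below over all features. The medians without the 2 libraries were 0.19 for the 7 and 0.03 over all features. The intervals of 5 of the 7 lay within a 2-fold change in either direction, as did those of 11962 of the 12896 features, and those of MT1X and MT1M reached beyond it upward. When the 2 libraries were left out, 6 of the 7 and 12402 of 12896 lay within it. The groups overlapped for 7 of 7 genes, where 3.53% of all features had groups apart. Without siGFPT2 replicate 2 and siNC replicate 3, MT2A, MT1E and MT1X were apart, all higher in siGFPT2. In that setting the share over all features was 23.9% higher and 41.9% in either direction, and 0% were called, with 5.82% at an unadjusted p under 0.05, MT1E among them. The same 3 genes were apart when siNC replicate 3 alone was left out, where the share over all features was 29%.

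**Figure D2:**
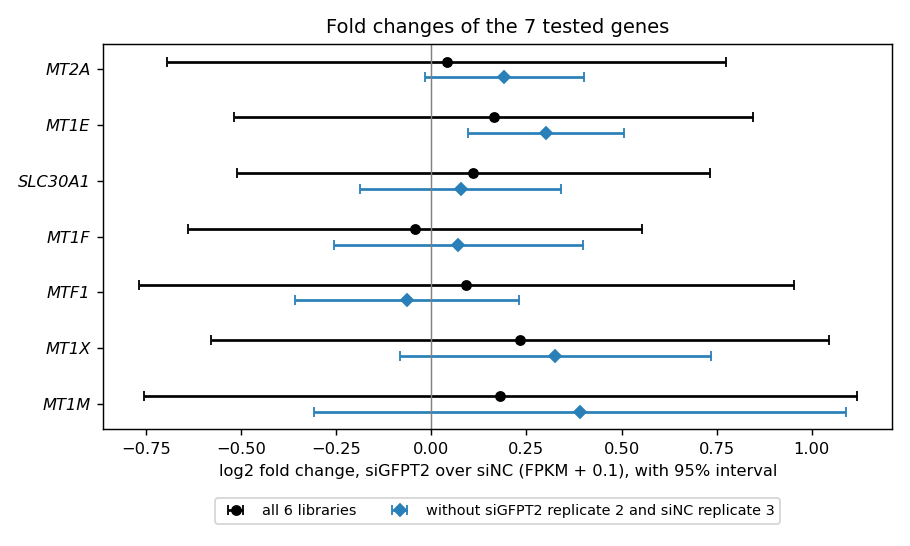
Log2 fold change of siGFPT2 over siNC on the FPKM + 0.1 scale for the 7 tested genes, with 95% intervals from limma, in all 6 libraries (black circles) and without siGFPT2 replicate 2 and siNC replicate 3 (blue diamonds). All intervals of the 6 libraries cross 0, and without the 2 libraries that of MT1E runs from 0.10 to 0.51.

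The libraries of 1 group differed more from each other in these genes than in most. The within-group SD on the log2 scale was 0.36 (MT1F) to 0.59 (MT1M), beside a median of 0.22 over all features tested. For 5 of 5 tested metallothioneins, siGFPT2 replicate 2 and siNC replicate 3 were the 2 highest libraries, which was so for 29.8% of all features. For MTF1 and SLC30A1 the same 2 libraries were the lowest, which was so for 35.4% of all features. The summed level of the 6 metallothionein genes was 815, 1216 and 883 FPKM in siGFPT2 libraries and 741, 713 and 1414 FPKM in siNC libraries. The level of MT2A was 132, 307 and 146 times that of SLC30A1 in siGFPT2 libraries, and 141, 117 and 418 times in siNC libraries. The 5 tested metallothioneins among the listed genes were thus high in the libraries where MTF1 and SLC30A1 were low.

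The metallothionein rows are short, with 511 to 1852 bases behind the FPKM values of the 5 tested, while SLC30A1 has 5893 and MTF1 7989. Apart from MT1E, these are the smallest lengths that give whole fragments, and the fragment numbers of MT2A, MT1F, MT1X, MT1M, MT1G, MTF1 and SLC30A1 rest on them. Among the 1205 features of 1000 to 2000 bases, the median deviation was 0.19 in siGFPT2 replicate 2 and 0.29 in siNC replicate 3. MT1E deviated by 0.41 and 0.53, MT1F by 0.25 and 0.52, and MT1X by 0.59 and 0.54 in the same order. Among the 1374 features under 1000 bases the medians were 0.13 and 0.19, with MT2A at 0.37 and 0.63 and MT1M at 0.43 and 0.67. MT1X in siGFPT2 replicate 2 lay above the 95th percentile of its length class, 0.42, and the other metallothionein values lay below those of theirs. With its GENCODE 29 exon length of 1299 bases, however, MT2A would belong to the class of 1000 to 2000 bases, where its 0.63 in siNC replicate 3 lies above the 95th percentile of 0.60. Among the 4716 features of 4000 to 8000 bases the medians were -0.06 and -0.12, with SLC30A1 at -0.34 and -0.52 and MTF1 at -0.40 and -0.81. MTF1 was below the 5th percentile of that class in both libraries (-0.38 and -0.62), but within the range of the class above 8000 bases (5th percentiles -0.56 and -0.88), next to which its length lies. With the length slope of each library as a covariate, the log2 fold change of siGFPT2 over siNC was 0.04 (-0.10 to 0.17) for MT2A. It was 0.159 (-0.00228 to 0.32) for MT1E, -0.05 (-0.25 to 0.16) for MT1F and 0.227 (-0.02 to 0.48) for MT1X. For MT1M it was 0.176 (-0.30 to 0.65), for MTF1 0.098 (-0.09 to 0.29) and for SLC30A1 0.115 (-0.06 to 0.29). Each interval was narrower than without the covariate and crossed 0. The slopes came from these same libraries, and the part of gene length in the differences of these 7 genes between libraries was not tested.

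**Figure D3:**
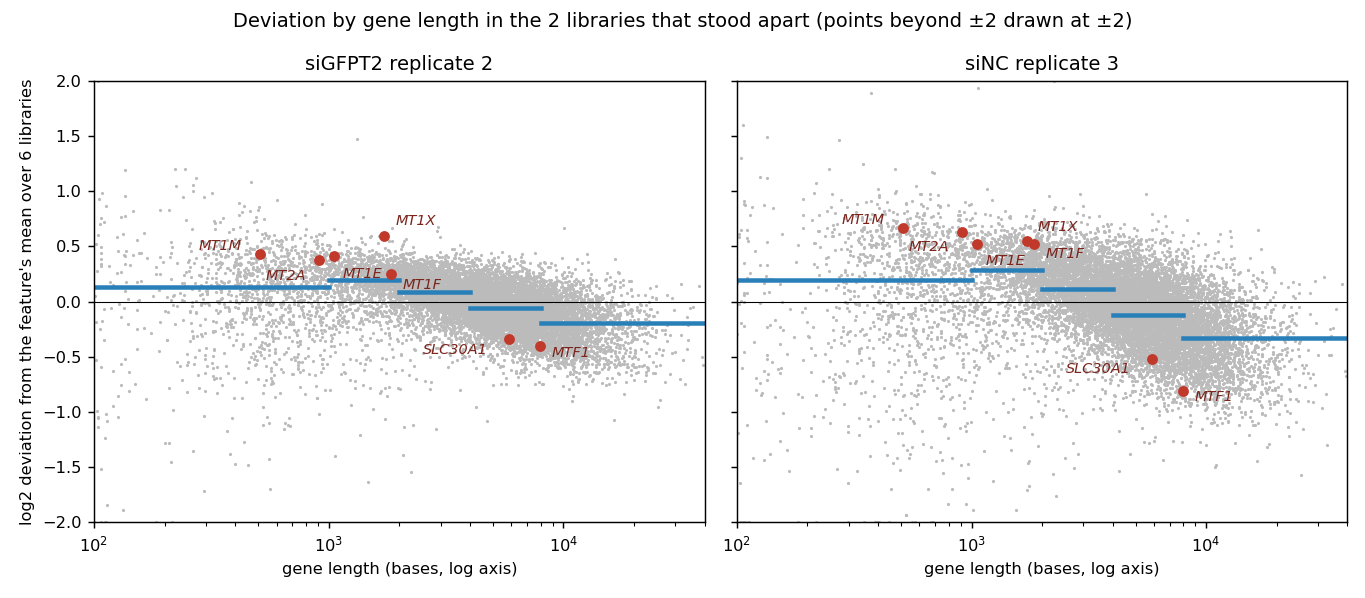
Deviation of tested features from their own means over the 6 libraries (log2, vertical) against gene length in bases (log axis), in siGFPT2 replicate 2 (left) and siNC replicate 3 (right), with grey points for features, blue lines for medians of length classes and red points for the 7 tested genes. Features shorter than the start of the length axis are not drawn, and values beyond the vertical axis are drawn at its edge. The 5 metallothioneins lie above 0 between 511 and 1852 bases and SLC30A1 and MTF1 lie below 0 at 5893 and 7989 bases, on the same sides as the medians of their classes.

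Genes with a like pattern were sought as those whose log2 values over the 6 libraries had the highest Pearson r with the mean centred profile of MT1E, MT1F, MT1M, MT1X and MT2A. The 5 nearest outside the gene lists were PDZD11 (r = 0.9998), SPAG7 (0.998), ATP5F1B (0.998), SEPHS1 (0.998) and TMEM258 (0.997), with 1359 to 3884 bases. Pearson r takes no account of the size of the differences between libraries. SEPHS1 ran only from 23.2 to 26.4 FPKM and TMEM258 from 7.42 to 14.1, beside 495 to 1010 FPKM for MT2A. Over all features 14.4% had an r above 0.9, and the 6 points share the 2 libraries that stood apart, so a high r was common. MT2A had an r of 0.988 with the mean it enters, and MTF1 and SLC30A1 had -0.965 and -0.927.

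Along the cluster on chromosome 16, which holds 16 listed genes and pseudogenes over 119 kb (GENCODE 29), 9 had a mean of at least 1 FPKM and 4 were at 0. MT1L, a transcribed pseudogene 9.3 kb from the start of MT2A, held 51.7, 75.8 and 49.98 FPKM in siGFPT2 libraries, against 54.7, 44.7 and 93.9 FPKM in siNC libraries. MT1A, a protein-coding copy at 30.5 kb, held 15.9, 21.8 and 14.9 FPKM in siGFPT2 libraries, against 14.96, 12.8 and 27.1 FPKM in siNC libraries. Both were highest in siNC replicate 3 and next in siGFPT2 replicate 2, as MT2A and MT1E were. Outside the cluster, MT2P1 on chromosome 4 followed the same order of libraries, at 44.0, 59.8 and 45.5 FPKM in siGFPT2 and 43.7, 42.4 and 71.6 FPKM in siNC. Whether the reads of MT2P1, MT1L and MT1A came from these copies or from MT2A and MT1E was not tested.

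The remaining copies were low or at 0. MT1DP, a transcribed pseudogene, held 1.92 to 2.77 FPKM in siGFPT2 and 1.18 to 4.28 FPKM in siNC, from 5 to 20 fragments. Its log2 fold change was 0.06 (-0.96 to 1.09). Without siGFPT2 replicate 2 and siNC replicate 3 it was 0.65 (0.05 to 1.25; limma adjusted p = 0.720). Of 5 tested copies outside the listed genes, 3 had groups apart in that setting, 2 of them higher, beside 41.9% of all features. MT1JP, MT1CP, MT1P1, MT1P3 and MT1XP1 had 0 to 7 fragments per library. MT1B, MT1H, MT1IP and MT4 of the cluster and MT1HL1 on chromosome 1 were at 0 in all libraries, which allows no more than 3 fragments per library (counting error only).

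MT3, the isoform best known from brain, had an r of only 0.136 with the mean profile of the MT1 and MT2 genes over the 6 libraries. It held 1.26, 2.23 and 1.93 FPKM in siGFPT2 libraries, against 2.34, 2.28 and 2.24 FPKM in siNC libraries, from 48 to 102 fragments. All siGFPT2 libraries were below all siNC libraries, by as little as 2.23 against 2.24 FPKM, and 3.53% of all features had groups apart. The log2 fold change was -0.36 (-0.88 to 0.16), with an adjusted p of 0.9999 by limma. An exact two-sided permutation test of this gene alone gave an unadjusted p of 0.1. That is the smallest p that 3 against 3 libraries allow, and every feature with groups apart reaches it. Without siGFPT2 replicate 2 and siNC replicate 3 the log2 fold change was -0.54, with a limma adjusted p of 0.720.

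**Figure D4:**
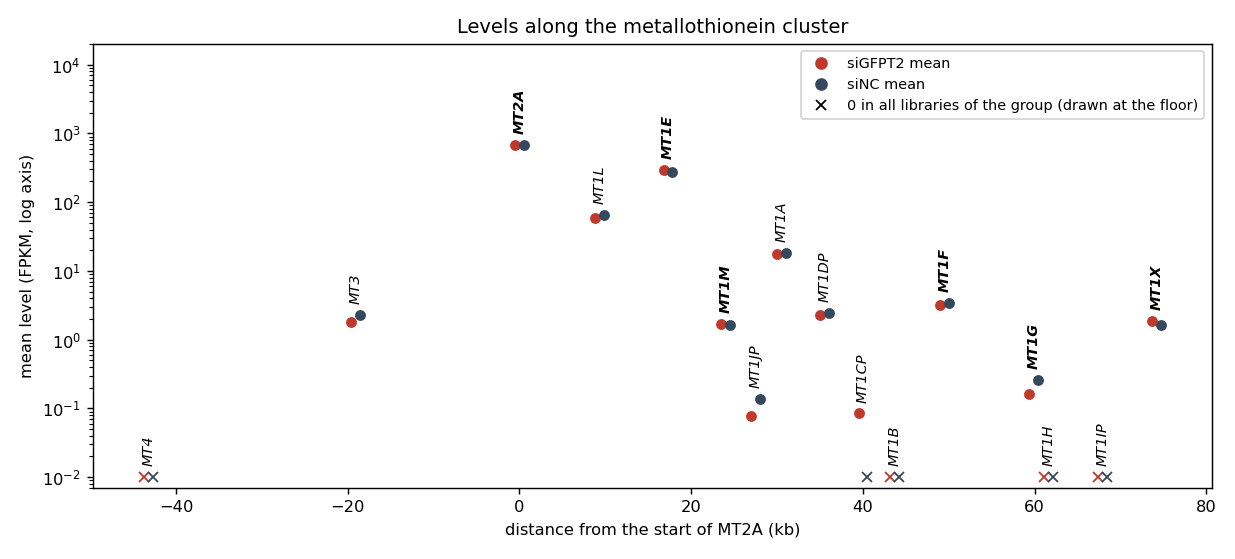
Mean level (FPKM, log axis) in siGFPT2 (red) and siNC (dark) of 16 metallothionein genes and pseudogenes of the chromosome 16 cluster against distance from the start of MT2A in kb, with the listed genes in bold and crosses at the floor for groups with 0 in all libraries. MT2A and MT1E stand above the rest, followed by MT1L and MT1A.

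Other zinc transporters showed no called gene. Of 10 further exporter genes (SLC30A2 to SLC30A10 and TMEM163), 4 were tested and 0 passed in either direction, with 4 of 4 fold changes above 0 and a median of 0.14 (0.17 without the 2 libraries), beside 0.03 over all features in both settings. SLC30A9 was the most abundant, at 17.8, 14.7 and 18.6 FPKM in siGFPT2 libraries and 13.7, 18.1 and 13.4 FPKM in siNC libraries. SLC30A6, which brings zinc into the early secretory pathway together with SLC30A5, held 8.10, 6.27 and 8.14 FPKM in siGFPT2 and 6.34, 7.48 and 5.81 FPKM in siNC, a log2 fold change of 0.19 (-0.18 to 0.56), and 0.24 (-0.02 to 0.49) without the 2 libraries. Of 14 importer genes of the SLC39 family, 10 were tested and 0 passed, with 7 fold changes above 0, 3 below and a median of 0.06 (0.03 without the 2 libraries). SLC39A7, which releases zinc from the endoplasmic reticulum, was the most abundant at 48.0 ± 3.38 FPKM in siGFPT2 and 47.8 ± 4.75 FPKM in siNC (SD, n = 3 each). SLC39A11 had the smallest p of the family, with a log2 fold change of 0.12 (-0.15 to 0.39). Without the 2 libraries it was 0.22 (0.03 to 0.41), with an unadjusted limma p of 0.0322 and an adjusted p of 0.720.

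Genes of copper handling and of metal and oxidant stress also held 0 called members. Of 13 copper genes 10 were tested, with 6 fold changes above 0, 4 below and a median of 0.04 (0.10 without the 2 libraries), beside 0.03 over all features. CCS, the copper chaperone of SOD1, held 45.7, 60.1 and 43.9 FPKM in siGFPT2 libraries and 49.6, 44.0 and 71.0 FPKM in siNC libraries, and SOD1 itself 54.3, 71.5 and 55.4 FPKM in siGFPT2 and 52.7, 51.7 and 82.6 FPKM in siNC. Both were highest in siNC replicate 3 and next in siGFPT2 replicate 2, as MT2A and MT1E were. SCO1, a copper chaperone of cytochrome c oxidase, had the smallest p of the copper list, at a log2 fold change of 0.13 (-0.13 to 0.40), and 0.18 (-0.08 to 0.44) without the 2 libraries. Of 12 stress genes 11 were tested, with 6 above 0, 5 below and a median of 0.09, beside 0.03 over all features. Without the 2 libraries the median of the stress genes was -0.0046, so its sign turned. HMOX1, heme oxygenase, which cadmium and oxidants induce, held 87.1, 89.0 and 79.4 FPKM in siGFPT2 and 81.8, 73.1 and 85.0 FPKM in siNC. HSPA1A, an inducible heat shock gene, held 58.2, 65.6 and 62.0 FPKM in siGFPT2 and 76.7, 66.8 and 82.5 FPKM in siNC, with a log2 fold change of -0.28 (-0.56 to 0.01; limma adjusted p = 0.9999). Its groups were apart, as in 3.53% of all features and in 1 of the 11 stress genes. Without the 2 libraries its log2 fold change was -0.25 (-0.48 to -0.03; adjusted p = 0.720). Its near copy HSPA1B overlapped between the groups (26.8, 26.4 and 30.9 FPKM in siGFPT2 and 32.9, 29.6 and 31.6 FPKM in siNC), and reads of the pair may be split.

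Glucocorticoid response genes, listed because metallothioneins answer to that hormone, held 0 called genes among 6 tested of 8, with 4 above 0, 2 below and a median of 0.00, which was -0.04 without the 2 libraries. TSC22D3 held 6.69, 6.99 and 6.48 FPKM in siGFPT2 and 6.95, 6.60 and 7.15 FPKM in siNC, and FKBP5 5.19, 4.08 and 5.17 FPKM in siGFPT2 and 4.598, 5.47 and 3.75 FPKM in siNC. The glucocorticoid receptor gene NR3C1 held 8.50, 6.02 and 8.56 FPKM in siGFPT2 and 6.68, 8.66 and 5.50 FPKM in siNC. FKBP5 and NR3C1 were lowest in siGFPT2 replicate 2 and siNC replicate 3, as MTF1 was.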

How the data were processed

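The deposited values are FPKM per gene and library in 1 table, made by the authors with HISAT2 and featureCounts, per the submitters' processing notes. Neither the genome build nor the gene annotation is given in the sources used here. Columns were tied to samples by title. Symbols came from a table of gene names, and gene types, positions and exon lengths from GENCODE 29 (GRCh38). Fragments were recovered from the steps of the FPKM values (tolerance 0.0001), with the GENCODE 29 exon length for 53.9% of features above 0 and the smallest length giving whole reads otherwise, which can understate reads.

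Values were analysed as log2(FPKM + 0.1) for 12896 features, those averaging 1 FPKM or more. Group was the only term of the limma model (version 3.58.1, R 4.3.3; moderated with a trend, two-sided), and p-values were adjusted by Benjamini-Hochberg over all of them. Fold changes on this scale understate changes of low genes. The fit was tested on simulated data. These held no shift of whole libraries with gene length, so they cannot show how the fit behaves under such a shift. The gene lists, like the members, were chosen with earlier results of these data known. Named genes are the 8 members, GFPT2, other metallothionein copies above 0, those of each list with the smallest p or highest level, and the 5 most alike in pattern; not all that this rule allows are printed, and metallothionein copies at 0 are named outside it.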

Additional observations from a re-analysis of the deposited data

How the results depend on the processing

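None of the 8 genes was called in any of 18 alternative fits (minimum mean, pseudocount, scaling, trend, block, length slope, limma-voom on recovered reads, libraries left out); the fit with limma-voom without siGFPT2 replicate 2 and siNC replicate 3 was chosen after seeing the data. Their adjusted p was 0.671 or more where tested, and a minimum mean of 5 FPKM left MT1E and MT2A. Unadjusted limma p-values under 0.05 were those of MT1E without siNC replicate 3 (0.0356) and without both siGFPT2 replicate 2 and siNC replicate 3 (0.011). With limma-voom without both, MT1E (0.00444) and MT2A (0.0329) were under it. Over all features 520, 751 and 866 were under it in these 3 fits. In the other fits no member was. GFPT2 stayed lower in 18 of 18. The number of members with groups apart was 3 without siGFPT2 replicate 2 and siNC replicate 3, and 0 to 3 with 1 library left out. Directions turned as follows. MT2A was -0.0126 with median centring and -0.00521 with quantile normalization. With 1 library left out, the log2 fold change ran over both signs in every tested gene: -0.147 (without siNC replicate 2) to 0.368 for MT2A, -0.00122 (without siGFPT2 replicate 2) to 0.467 for MT1E, -0.224 to 0.206 for MT1F, -0.00506 (without siGFPT2 replicate 2) to 0.564 for MT1X, -0.215 (without siNC replicate 2) to 0.562 for MT1M, -0.288 to 0.326 for MTF1 and -0.123 to 0.31 for SLC30A1. The highest values of the 5 metallothioneins and the lowest of MTF1 and SLC30A1 came without siNC replicate 3. MT2A also turned without siNC replicate 1 (-0.1) and siGFPT2 replicate 2 (-0.136), MT1F (0.0636) and SLC30A1 (-0.000792) without siGFPT2 replicate 1, and MTF1 without siGFPT2 replicates 1 (-0.0305) and 3 (-0.0106). Without both siGFPT2 replicate 2 and siNC replicate 3, MT1F was 0.0711 and MTF1 -0.0633 (limma-voom 0.0723 and -0.0651). The causes of these turns were not tested. Features at an unadjusted p under 0.05 numbered 84 with all libraries, 704 with the length slope as a covariate and 751 without the 2 libraries.

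The labels do not tell if the replicate numbers pair the libraries. Same-numbered deviations correlated at 0.473, -0.719 and -0.57, while siGFPT2 replicate 2 and siNC replicate 3 correlated at 0.792. These 2 libraries stood apart and bear different numbers, so the correlations cannot settle whether cultures were paired. With the replicate block 0 features were called, as without it, and 63 were at an unadjusted p under 0.05. Fold changes under the block equalled those without it. MT1G was tested only with no minimum mean. Depth limits MT1M (9 to 32 fragments) and MT1G (1 to 8).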
